A study of Mus musculus with 8 samples.

Results

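The response of the E13.5 mouse cortex to the PlyA-KI genotype was described across the autosomal genes, from 2 PlyA-KI and 2 wild-type (WT) libraries of messenger RNA. All 4 came from whole cortices of C57BL/6 embryos at E13.5 (embryonic day) that were pooled before sequencing. The allele behind the name PlyA-KI is not explained in the labels, and neither zygosity, litters, embryo sex nor embryos per pool are given in the sources used here. The p-values therefore measure the spread between these pools alone. The members were all genes on chromosomes 1 to 19, of which the count tables list 23981 among 27178 genes, and 14401 had enough counts to be tested. The same series holds 4 libraries of sorted, electroporated ICR cortex cells (Lockd-shRNA and control), which entered no test of the knock-in.

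At this stage the cortical wall is built of radial glia, the dividing stem cells along the ventricle, of intermediate progenitors derived from them, and of newborn neurons that migrate outward, with deep-layer neurons made before upper-layer ones. Notch signalling keeps radial glia undifferentiated, and the length of their cell cycle is set by cyclins, cyclin-dependent kinases (CDKs) and CDK inhibitors such as p27, the product of Cdkn1b. Lockd is a long noncoding RNA transcribed from a gene just downstream of Cdkn1b and on the same strand, and by its title the study concerns opposing roles of Lockd in the cell cycle of cortical progenitors. In mouse erythroid cells the Lockd gene is known to contain an enhancer of Cdkn1b.

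One library stood apart from the others by the sex-linked genes. PlyA-KI 1 had 0.967 CPM (counts scaled to a library total of 1000000) of Xist, the RNA that coats the inactive X chromosome, with 85.9 CPM of Ddx3y and 105 CPM of Eif2s3y, both genes of the Y chromosome. PlyA-KI 2 had 2807 CPM of Xist, against 2819 and 2699 CPM in WT 1 and WT 2, and in these 3 libraries Ddx3y and Eif2s3y were at 0 to 0.0569 CPM. Embryo sex in the pool thus cannot be told apart from the PlyA-KI 1 library. Values without this library are given below for some of the genes and lists, not for all. Depth was 39282886 and 35167646 counts in PlyA-KI and 39334429 and 47460020 in WT. The markers of cortex were present in every library, with 62.6 to 71.5 CPM of Emx1 and 222 to 264 CPM of Pax6. Ttr of choroid plexus and Myod1 of muscle had 0 counts in all 4, and Gbx2 of diencephalon had at most 2. Genes of the mitochondrial genome held 2.86 and 3.09% of the counts in PlyA-KI and 2.25 and 2.07% in WT. The median absolute log2 difference per gene was 0.137 between the PlyA-KI libraries and 0.120 between the WT libraries, against 0.136 to 0.167 for the pairs across genotypes. The chi-square of the counts per gene covered all genes tested, sex-linked and mitochondrial ones included, while the median difference covered autosomal genes alone. The chi-square was 24.4 between the PlyA-KI libraries and 13.97 between the WT libraries, against 26.5 to 48.4 across genotypes. It therefore also holds the differences of PlyA-KI 1 in Xist and the Y-linked genes.

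Lockd was nearly lost in PlyA-KI cortex, and it was the only autosomal gene whose level passed the test. It fell to 0.102 and 0.0569 CPM in PlyA-KI 1 and 2, from 4 and 2 counts, against 22.1 and 24.0 CPM in WT 1 and 2. The PlyA-KI level was 0.348% of the WT level (95% exact binomial interval 0.128 to 0.759%, counting error only). Its log2 fold change, PlyA-KI over WT, was -8.12 (SE 0.26; adjusted p = 2.98e-07, edgeR, quasi-likelihood F-test, Benjamini-Hochberg adjusted over the 15398 genes tested), and it was -8.59 without PlyA-KI 1. Lockd was also called under all 11 alternative settings. It was 1 of 14401 autosomal genes past an adjusted p of 0.05, a share of 0.00694%, and 0 genes were called higher.

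Lockd lies on the plus strand of chromosome 6 at 134929092 to 134951718 (GRCm38), and Cdkn1b lies before it at 134920401 to 134925525. The start of Cdkn1b is 8.69 kb upstream of the Lockd start. A link between the loss of Lockd and the level of Cdkn1b was not tested. For these neighbouring genes, the windows from 250 bases before to 50 bases after each start are shown. They were taken from RefSeq (GRCm38.p6), plus strand, and capitals mark the CCAAT box on either strand (CCAAT or ATTGG), the element bound by NF-Y at many promoters.
Lockd, chr6:134928842-134929141: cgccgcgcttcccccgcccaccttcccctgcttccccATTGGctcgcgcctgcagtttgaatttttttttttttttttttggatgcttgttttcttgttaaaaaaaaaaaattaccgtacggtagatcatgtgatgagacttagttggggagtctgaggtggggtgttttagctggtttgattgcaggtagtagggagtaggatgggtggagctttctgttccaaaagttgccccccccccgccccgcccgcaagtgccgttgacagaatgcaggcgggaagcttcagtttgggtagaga
Cdkn1b, chr6:134920151-134920450: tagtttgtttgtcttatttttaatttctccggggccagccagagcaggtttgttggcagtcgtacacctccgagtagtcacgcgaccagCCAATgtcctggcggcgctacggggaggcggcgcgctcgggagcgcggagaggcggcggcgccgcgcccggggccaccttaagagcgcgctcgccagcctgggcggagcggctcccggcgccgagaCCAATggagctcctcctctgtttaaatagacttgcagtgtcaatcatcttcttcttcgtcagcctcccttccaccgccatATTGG
The Lockd window held 1 CCAAT match, on the strand opposite to the one printed, and the Cdkn1b window held 2 as printed and 1 on the opposite strand. This 5-letter motif was found on either strand in 37.4% of 32851 promoter windows of the same length. TTTGAA, the core of the cell cycle homology region found in many mitotic genes, occurred once in the Lockd window and in 17.9% of all windows, and was not found in the Cdkn1b window. GGGCGG, the GC box of Sp-type factors, had 3 matches in the Lockd window on the strand opposite to the one printed and 1 in the Cdkn1b window as printed, against 35.7% of windows with a match on either strand.

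Cdkn1b was at 143 and 129 CPM in PlyA-KI, against 222 and 190 CPM in WT, so both PlyA-KI libraries were below both WT libraries. Its log2 fold change was -0.61 (SE 0.09), which missed the threshold (adjusted p = 0.0843, edgeR) although its p was, with that of Lars2, the smallest among autosomal genes after Lockd. DESeq2 called it (adjusted p = 4.59e-06). In the edgeR fits with DESeq2 size factors, autosomal genes alone or a CPM filter, its adjusted p was 0.0856 to 0.225, and 0.0741 in limma-voom. These settings called Lockd alone. In edgeR without a filter and with the replicate block it was 4.10e-10 and 5.19e-30, settings that called 442 and 2078 autosomal genes. Fits that leave out 1 library gave Cdkn1b log2 fold changes from -0.72 to -0.49, with -0.68 without PlyA-KI 1. Within 2 Mb of Lockd, 22 other genes were tested, of which 10 had positive and 12 negative log2 fold changes, with a median of -0.02. Apold1, an endothelial early response gene that starts 52.9 kb downstream, had 2.85 and 3.13 CPM in PlyA-KI and 4.63 and 5.06 CPM in WT (log2 fold change -0.71, SE 0.22; adjusted p = 0.270, edgeR). Gpr19, an orphan receptor gene 60 kb upstream, was at 0.30, Dusp16, a phosphatase of MAP kinases, at -0.19, and the RNA helicase gene Ddx47, 82.5 kb downstream, at -0.01. None of these passed the test. Grin2b, an NMDA receptor subunit 784 kb downstream, had 7.84 and 5.54 CPM in PlyA-KI and 5.19 and 2.82 CPM in WT (0.74, SE 0.29).

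**Figure D1:**
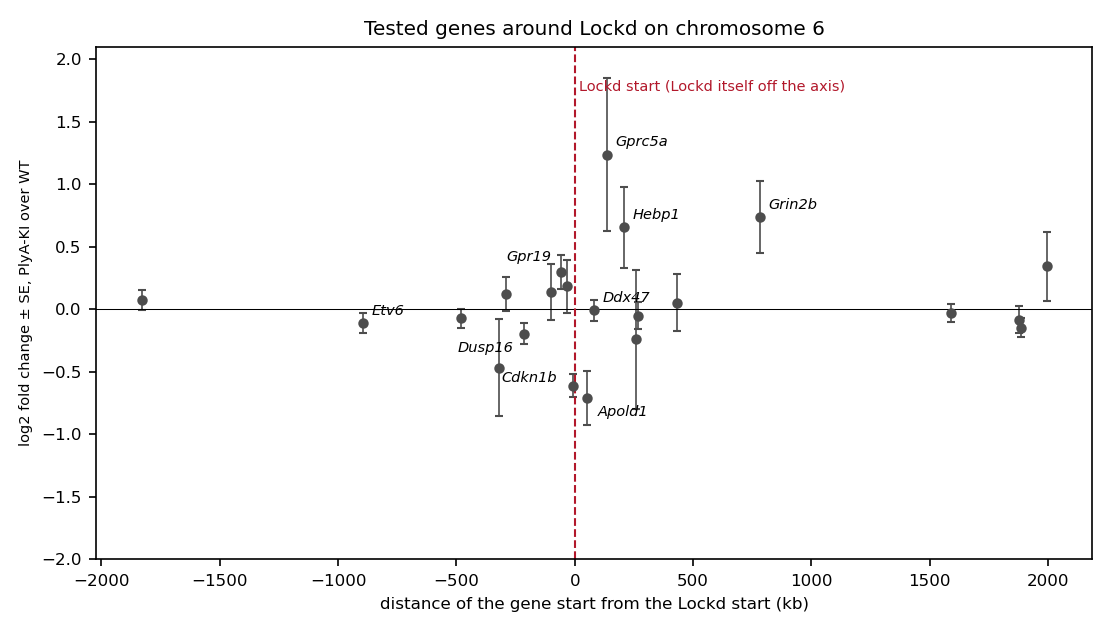
Log2 fold change of PlyA-KI over WT (points, with SE as bars) for the 22 genes tested within 2 Mb of Lockd, against the distance of each gene start from the Lockd start in kb. Lockd itself, at -8.12, is off the axis. Cdkn1b and Apold1 lie at -0.61 and -0.71 beside the dashed line, and the median of the 22 genes is -0.02.

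Across the autosomes the remaining differences were small. The median absolute log2 fold change was 0.13, with 7412 genes above and 6989 below 0 and a median of 0.01. Of the 10431 genes with a mean of 5 CPM or more, 10 had an absolute log2 fold change over 1. At an unadjusted p under 0.05 the test gave 920 genes higher in PlyA-KI, 6.39% of those tested, and 896 lower, 6.22%. Both PlyA-KI libraries lay above both WT libraries for 23.7% of the genes and below both for 20.4%. DESeq2, which shares the counts but not the estimate of spread, called 98 of the 12027 autosomal genes to which it gave an adjusted p (0.815%), 48 higher (0.399%) and 50 lower (0.416%), and 2374 genes were given none. Among its calls other than Lockd the log2 fold changes ran from -1.0 to 2.09, with a median of 0.57 for those higher and of -0.37 for those lower.

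**Figure D2:**
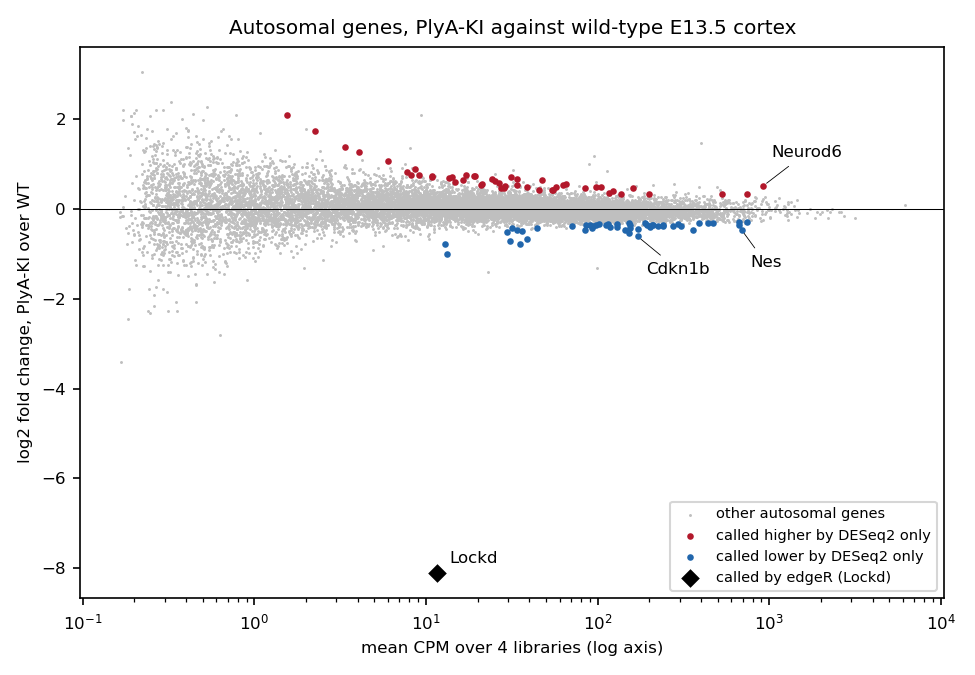
Log2 fold change of PlyA-KI over WT against the mean CPM of the 4 libraries (log axis) for the 14401 autosomal genes tested. Lockd, the 1 gene called by edgeR, lies at -8.12, while the genes that DESeq2 alone called (red, 48 higher; blue, 49 lower) lie between -1.0 and 2.09.

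The direction of these differences went with transcript length and level. In the quintile of genes with the shortest length implied by the deposited FPKM (median 1101 bases), PlyA-KI lay above WT without overlap for 34.6% of genes and below for 9.02%. In the longest quintile (median 6290 bases) these shares were 16.8% and 31.8%. Likewise 14.9% of the most abundant quintile lay above WT and 35.3% below. Long noncoding RNAs had a median log2 fold change of 0.11 over 650 genes, against 0.00 over 13409 protein-coding genes. Chromosome medians ran from -0.01 on chromosome 8 to 0.06 on chromosome 13. On chromosome 13, 30.7% of genes lay above WT without overlap and 15.0% below, against 23.7% and 20.4% of all. Chromosome 6, which carries Lockd, had the largest share higher at an unadjusted p under 0.05 (edgeR), 9.85% against 6.39% of all. Its share lower was 4.92%, against 6.22% of all. The part of length and of level in the gene groups below was not tested.

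Among the genes with the smallest p and a mean of 5 CPM or more, none of the 10 that were higher in PlyA-KI passed edgeR's threshold, with adjusted p from 0.0843 to 0.155, while DESeq2 called 8 of them. In all 10 both PlyA-KI libraries were above both WT libraries, a selection made on these same values. Ldb2, a cofactor of LIM-homeodomain factors found in deep-layer neurons, had 19.9 and 20.2 CPM in PlyA-KI and 12.9 and 12.6 CPM in WT, a log2 fold change of 0.64 (SE 0.11). Pcp4, a calmodulin-binding peptide of deep-layer neurons, had 26.5 and 24.1 CPM in PlyA-KI against 17.6 and 16.3 CPM in WT (0.57, SE 0.11).
For both genes the replicates lay closer to each other than to the other genotype. Mef2c, a transcription factor of maturing cortical neurons, had 80.3 and 68.2 CPM in PlyA-KI against 53.2 and 47.9 CPM in WT (0.54, SE 0.10).
Some encode proteins of transport along microtubules. Sybu, which links cargo to kinesin, had 32.7 and 27.2 CPM in PlyA-KI against 20.01 and 17.2 CPM in WT (0.68, SE 0.12). Dync1i1, a dynein intermediate chain of neurons, had 11.6 and 10.7 CPM in PlyA-KI against 6.69 and 5.33 CPM in WT (0.89, SE 0.17). Mir124a-1hg, the host transcript of a miR-124 precursor, a microRNA of neurons, had 173 and 118 CPM in PlyA-KI against 89.6 and 70.5 CPM in WT (0.85, SE 0.16). PlyA-KI 1 was the highest of the 4 libraries for these 3 genes.

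Another of the 10, Lars2, the mitochondrial leucyl-tRNA synthetase, had 753 and 420 CPM in PlyA-KI against 240 and 181 CPM in WT (log2 fold change 1.47, SE 0.22), and 1.00 without PlyA-KI 1. The share of counts on identifiers without a name was likewise 0.658 and 0.768% in PlyA-KI against 0.467 and 0.423% in WT. Among them, 100861531 by itself had 2984 and 4125 CPM in PlyA-KI against 1352 and 1062 CPM in WT. The relation of this share to Lars2 was not tested. Hbb-b1, an adult beta globin with near-identical copies that make its counts uncertain, had 33.7 and 44.6 CPM in PlyA-KI against 23.7 and 23.6 CPM in WT (0.72, SE 0.13). Zfp518a, a zinc finger gene, had 69.6 and 64.6 CPM in PlyA-KI against 44.3 and 50.6 CPM in WT (0.49, SE 0.09).

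The 10 genes after Lockd with the smallest p and lower values in PlyA-KI included Cdkn1b. Their adjusted p also ran from 0.0843 to 0.155 in edgeR, and DESeq2 called 9 of the 10. Nes, which encodes the intermediate filament nestin of radial glia, had 559 and 604 CPM in PlyA-KI against 773 and 823 CPM in WT, a log2 fold change of -0.47 (SE 0.09). Fgfr3, a fibroblast growth factor receptor of radial glia, had 199 and 194 CPM in PlyA-KI against 262 and 247 CPM in WT (-0.39, SE 0.07). Igfbp5, an insulin-like growth factor binding protein, had 140 and 155 CPM in PlyA-KI against 202 and 194 CPM in WT (-0.44, SE 0.08).
In all 3 genes the replicates of a genotype lay closer to each other than the genotypes did, in a selection made by p on these same values. Tfrc, the transferrin receptor through which dividing cells take up iron, had 115 and 129 CPM in PlyA-KI against 160 and 177 CPM in WT (-0.48, SE 0.09). Ptgfrn, a membrane protein of the immunoglobulin family, had 171 and 179 CPM in PlyA-KI against 230 and 227 CPM in WT (-0.40, SE 0.07). Phf13, a chromatin reader of methylated histone H3, had 25.3 and 23.9 CPM in PlyA-KI against 35.3 and 33.9 CPM in WT (-0.50, SE 0.10).
Larger differences came with wider spread. Wdfy1, an endosomal protein, had 14.9 and 10.5 CPM in PlyA-KI against 42.9 and 23.5 CPM in WT (-1.39, SE 0.25), with WT 1 far above WT 2. Dynlt1b, a dynein light chain with near-identical copies that make its counts uncertain, had 9.50 and 8.25 CPM in PlyA-KI against 20.2 and 15.1 CPM in WT (-1.0, SE 0.16). Zfp623, a zinc finger gene, had 25.5 and 26.8 CPM in PlyA-KI against 50.03 and 39.0 CPM in WT (-0.78, SE 0.12). The 10 higher and the 10 lower genes all kept their direction in the fits that leave out 1 library. Those fits share libraries with the fit that chose the genes. Without PlyA-KI 1 the log2 fold changes of Nes, Fgfr3, Igfbp5 and Ptgfrn were -0.40, -0.40, -0.36 and -0.35. Wdfy1 and Dynlt1b were at -1.67 and -1.10 in that fit.

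**Figure D3:**
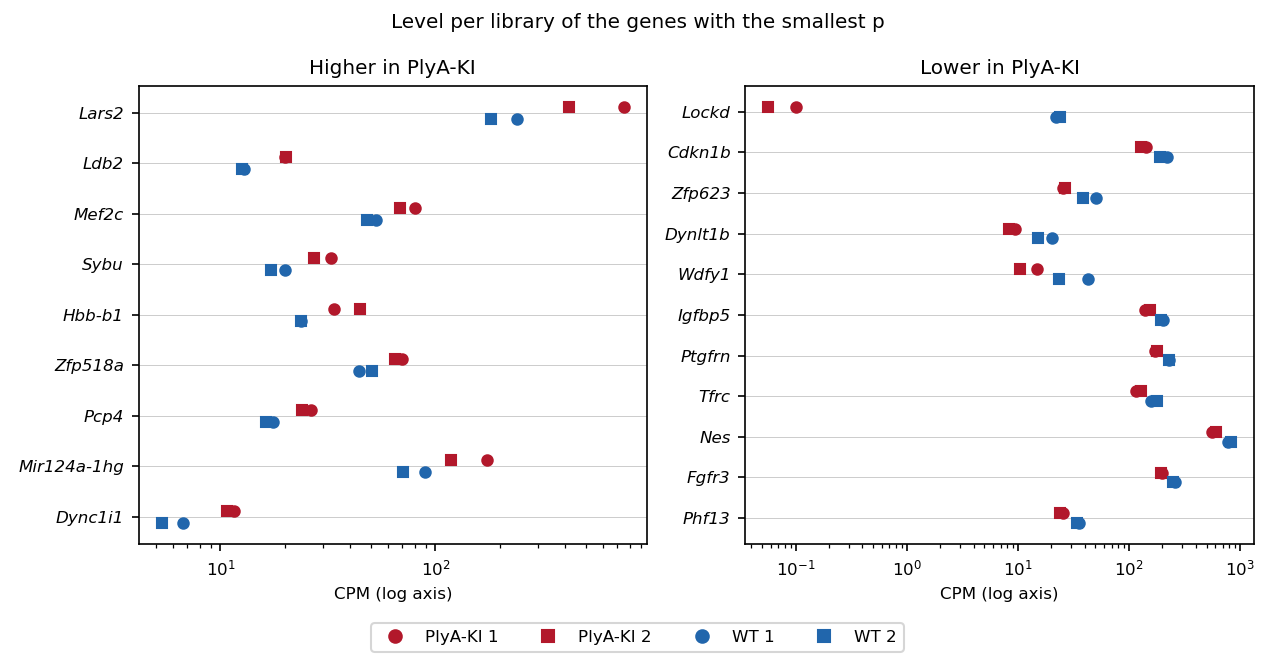
CPM per library (log axis) of 9 of the 10 genes higher and, with Lockd, the 11 genes lower in PlyA-KI with the smallest p; red marks PlyA-KI and blue WT, circles replicate 1 and squares replicate 2. The groups do not overlap in any gene shown, a selection made on these same values. Lockd, at 0.102 and 0.0569 CPM in PlyA-KI, stands apart from the others.

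Markers of radial glia leaned to lower values in PlyA-KI, and the list as a whole was low in both PlyA-KI libraries. Of 36 tested, 7 had positive and 29 negative log2 fold changes, with a median of -0.12 against 0.01 over all autosomal genes, and 18 lay below WT and 4 above it without overlap, against 20.4% and 23.7% of all autosomal genes. edgeR called 0 of them, with 1 higher and 11 lower at an unadjusted p under 0.05 (6.39% and 6.22% of all). DESeq2 called 3 lower (0.416% of all), namely Nes, Fgfr3 and Notch1, of which Notch1 is also in the Notch list. The median was -0.11 without PlyA-KI 1 and -0.14 without PlyA-KI 2. The list sat at -0.08 and -0.05 in the PlyA-KI libraries and at 0.07 in both WT libraries, as median log2 deviation of its genes from their own mean over the 4 libraries. Nr2e1, the nuclear receptor that keeps neural stem cells dividing, had 226 and 221 CPM in PlyA-KI and 269 and 273 CPM in WT (log2 fold change -0.29, SE 0.07; adjusted p = 0.248, edgeR). The defining markers Pax6 and Sox2 had log2 fold changes of -0.15 and -0.21, and Vim was at -0.05.

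The Notch pathway list had the same pattern of libraries. Of 28 genes 24 had negative log2 fold changes, and 12 lay below WT and 2 above it without overlap, against 20.4% and 23.7% of all autosomal genes. The median was -0.10, and -0.11 without PlyA-KI 1. The receptor Notch1 had 202 and 218 CPM in PlyA-KI and 266 and 274 CPM in WT (-0.37, SE 0.08; adjusted p = 0.180 in edgeR and 0.0100 in DESeq2). The receptor Notch3 had 86.7 and 89.7 CPM in PlyA-KI and 104 and 113 CPM in WT (-0.31, SE 0.08), and the receptor Notch2 was at -0.24. The effector genes Hes1 and Hes5 were at -0.02 (SE 0.09) and -0.23 (SE 0.15). Genes of intermediate progenitors and proneural factors had a median of -0.03 over 24 genes, 10 positive and 14 negative, whose sign turned without WT 1 or PlyA-KI 2. Eomes, the factor that defines intermediate progenitors, was at 527 and 464 CPM in PlyA-KI and 549 and 454 CPM in WT. Sstr2, a somatostatin receptor of these cells, had 82.5 and 60.3 CPM in PlyA-KI and 93.2 and 104 CPM in WT (-0.47, SE 0.13; adjusted p = 0.0461 in DESeq2 and 0.267 in edgeR).

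Genes of the cell cycle had mostly lower values in PlyA-KI, but PlyA-KI 2 was close to WT 1. In the S phase list 44 of 49 genes had negative log2 fold changes, with a median of -0.18, and 20 lay below WT and 0 above it without overlap, against 20.4% and 23.7% of all autosomal genes. The list stood at -0.17 in PlyA-KI 1, 0.02 in PlyA-KI 2, -0.03 in WT 1 and 0.18 in WT 2, so the groups overlapped at the level of the list. Its median was -0.07 without PlyA-KI 1 and -0.04 without WT 2. The list of G2 and M phase had 56 of 63 genes negative, a median of -0.13 and 28 genes below WT and 0 above it without overlap, and its median was -0.04 without PlyA-KI 1 and also without WT 2. edgeR called 0 genes of either list, with 16 and 19 lower at an unadjusted p under 0.05 (6.22% of all), and DESeq2 called 4 and 3 lower (0.416% of all).
Uhrf1, which brings the maintenance DNA methyltransferase to replicated DNA, had 258 and 277 CPM in PlyA-KI and 321 and 366 CPM in WT (-0.37, SE 0.09; adjusted p = 0.218, edgeR). Ticrr, needed to fire replication origins, had 79.2 and 84.5 CPM in PlyA-KI and 102 and 109 CPM in WT (-0.37, SE 0.08). Incenp, a subunit of the chromosomal passenger complex, had 206 and 215 CPM in PlyA-KI and 257 and 276 CPM in WT (-0.35, SE 0.08).
In all 3 genes both PlyA-KI libraries were below both WT libraries, a selection made on these same values. Among 23 cyclins, CDKs and E2F factors, 17 were negative with a median of -0.16, which was -0.10 without PlyA-KI 1 and -0.07 without WT 2. Ccnd1, the D-type cyclin that drives progenitors through G1, had 127 and 135 CPM in PlyA-KI and 162 and 190 CPM in WT (-0.43, SE 0.09; adjusted p = 0.195 in edgeR and 0.0109 in DESeq2). The E2F repressors E2f8 and E2f7 were at -0.37 and -0.28.

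Of the 6 tested CDK inhibitors, 2 had negative log2 fold changes, Cdkn1b and Cdkn2c, and 4 had positive ones. Cdkn1c, encoding p57, had 88.3 and 87.0 CPM in PlyA-KI and 79.3 and 64.7 CPM in WT (log2 fold change 0.27, SE 0.10; adjusted p = 0.322, edgeR). Cdkn1a, encoding p21, had 3.39 and 5.29 CPM in PlyA-KI and 3.76 and 3.16 CPM in WT (0.31, SE 0.26), with overlapping groups. Cdkn2c, encoding p18, had 18.4 and 17.7 CPM in PlyA-KI against 19.02 and 20.04 CPM in WT (log2 fold change -0.12, SE 0.11). The log2 fold change was 0.01 (SE 0.11) for Cdkn2d, encoding p19, and 0.26 (SE 0.16) for Cdkn3, a phosphatase of CDKs. None of the 6 passed in edgeR, and DESeq2 called Cdkn1b alone.

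Genes of neurons had mostly higher values in PlyA-KI, led by PlyA-KI 1 and with the lowest values in WT 2. In the list of newborn and migrating neurons 29 of 33 genes had positive log2 fold changes, with a median of 0.19, and 14 lay above WT and 1 below it without overlap, against 23.7% and 20.4% of all autosomal genes. The list sat at 0.18 in PlyA-KI 1 and 0.00 in PlyA-KI 2, against 0.01 in WT 1 and -0.19 in WT 2, so the groups overlapped at the level of the list, and its median was 0.09 without PlyA-KI 1 and also without WT 2. edgeR called 0 of its genes, with 12 higher at an unadjusted p under 0.05 (6.39% of all), and DESeq2 called 4 higher (0.399% of all). Neurod6, a transcription factor of newborn pyramidal neurons, had 1162 and 1016 CPM in PlyA-KI and 808 and 702 CPM in WT (0.52, SE 0.10; adjusted p = 0.157 in edgeR and 0.000121 in DESeq2). Gap43, a protein of growing axons, had 138 and 143 CPM in PlyA-KI and 112 and 98.5 CPM in WT (0.41, SE 0.09). The microtubule regulators Stmn2 and Stmn3 were at 0.34 and 0.43.

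Deep-layer genes had 18 of 20 positive, with 11 above WT and 1 below it without overlap, against 23.7% and 20.4% of all autosomal genes. Their median was 0.26, which was 0.18 without PlyA-KI 1 and 0.14 without WT 2. Beyond Ldb2 and Pcp4, the neurexophilin gene Nxph3 had 8.78 and 7.51 CPM in PlyA-KI and 5.06 and 2.74 CPM in WT (1.06, SE 0.27; adjusted p = 0.257 in edgeR and 0.0339 in DESeq2). Tbr1, the factor that specifies layer 6, was at 0.24 (SE 0.12) and Bcl11b, a factor of subcerebral neurons, at 0.35 (SE 0.14). Upper-layer genes had 13 of 18 positive and a median of 0.20, which was 0.05 without PlyA-KI 1, 0.08 without WT 2 and 0.33 without WT 1. Cdh13, a cadherin of migrating neurons, had 56.2 and 44.4 CPM in PlyA-KI and 39.9 and 27.9 CPM in WT (0.56, SE 0.16; adjusted p = 0.270 in edgeR and 0.0613 in DESeq2).
Of 50 genes of synapse and axon 42 were positive, with 23 above WT and 4 below it without overlap, against 23.7% and 20.4% of all autosomal genes. The median was 0.24, which was 0.09 without PlyA-KI 1 and 0.08 without WT 2. Of the 50 genes 33 belong to the longest quintile, in which negative values were the more common. Kcnq3, a subunit of the M-type potassium channel, had 20.9 and 14.7 CPM in PlyA-KI and 10.5 and 10.9 CPM in WT (0.72, SE 0.16). Camk2a, a kinase of excitatory synapses, went the other way, with 26.0 and 24.7 CPM in PlyA-KI and 32.4 and 31.7 CPM in WT (-0.35, SE 0.10; adjusted p = 0.268, edgeR).

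Genes of interneurons and the ganglionic eminence, the ventral region that borders the cortex, had the second-highest median of the lists at 0.49, with 17 of 23 positive. Of the 23, 11 lay above WT and 1 below it without overlap, against 23.7% and 20.4% of all autosomal genes, and neither edgeR nor DESeq2 called any. The median was 0.36 without PlyA-KI 1, 0.30 without WT 2 and 0.80 without WT 1. Lhx6, a factor of migrating interneurons, had 14.8 and 8.30 CPM in PlyA-KI and 6.41 and 2.59 CPM in WT (log2 fold change 1.36, SE 0.37; adjusted p = 0.267 in edgeR and 0.481 in DESeq2). Gad2, which makes the transmitter GABA, had 14.001 and 8.45 CPM in PlyA-KI and 7.73 and 4.19 CPM in WT (0.91, SE 0.29). Lhx6 and Gad2 followed one order from high to low, PlyA-KI 1, PlyA-KI 2, WT 1 and WT 2, which Dlx5, Calb1 and Dlx6os1 of the list did not. The ventral factor Dlx2 had 3.28 and 2.30 CPM in PlyA-KI against 2.44 and 0.990 CPM in WT, with overlapping groups. The list's summed level was 264 and 237 CPM in PlyA-KI and 238 and 197 CPM in WT. In pooled tissue, more cells of a type and more RNA per cell cannot be told apart, and the part of the dissection was not tested.

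Other regional markers showed no common direction across libraries. Of 12 tested genes of cortical hem and choroid plexus, 9 were positive with a median of 0.33, which was 0.53 without PlyA-KI 1 and 0.20 without PlyA-KI 2, and PlyA-KI 2 was highest. Rspo3, a Wnt enhancer of the hem, had 18.1 and 15.6 CPM in PlyA-KI and 11.6 and 9.10 CPM in WT (0.69, SE 0.15; adjusted p = 0.200 in edgeR and 0.0267 in DESeq2). Cajal-Retzius genes had a median of 0.05 that turned negative without PlyA-KI 2, and their secreted protein Reln had 244 and 367 CPM in PlyA-KI and 246 and 279 CPM in WT. The list of diencephalon and septum had 8 of 11 negative with a median of -0.12, and that of the Wnt pathway 20 of 30 negative with a median of -0.06.

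Markers of blood, connective tissue and immune cells were highest in PlyA-KI 2. Of 19 erythroid genes 18 were positive, with a median of 0.54, the highest of the lists. The median was 0.79 without PlyA-KI 1 and 0.24 without PlyA-KI 2. Hba-a1, an alpha globin, had 73.8 and 110 CPM in PlyA-KI and 61.5 and 65.5 CPM in WT. The list of pericytes, fibroblasts and meninges had a median of 0.33 that was 0.67 without PlyA-KI 1 and -0.22 without PlyA-KI 2. The collagen gene Col1a1 of fibroblasts had 21.5 and 56.3 CPM in PlyA-KI and 26.6 and 26.3 CPM in WT. In the same list Fn1, a matrix protein that radial glia and vessels also make, had 270 and 334 CPM in PlyA-KI and 395 and 438 CPM in WT (-0.47, SE 0.11; adjusted p = 0.206 in edgeR and 0.00737 in DESeq2).
Microglia and macrophage genes had a median of 0.16, which was 0.51 without PlyA-KI 1 and -0.29 without PlyA-KI 2. Csf1r, their growth factor receptor, had 4.84 and 8.53 CPM in PlyA-KI and 7.09 and 7.61 CPM in WT. Endothelial genes and those of oligodendrocyte precursors and astrocytes had medians of 0.08 each, and both turned negative without PlyA-KI 2. The list of head mesenchyme, muscle and skin had a median of -0.04 over 14 tested genes. edgeR called 0 genes in these lists.

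**Figure D4:**
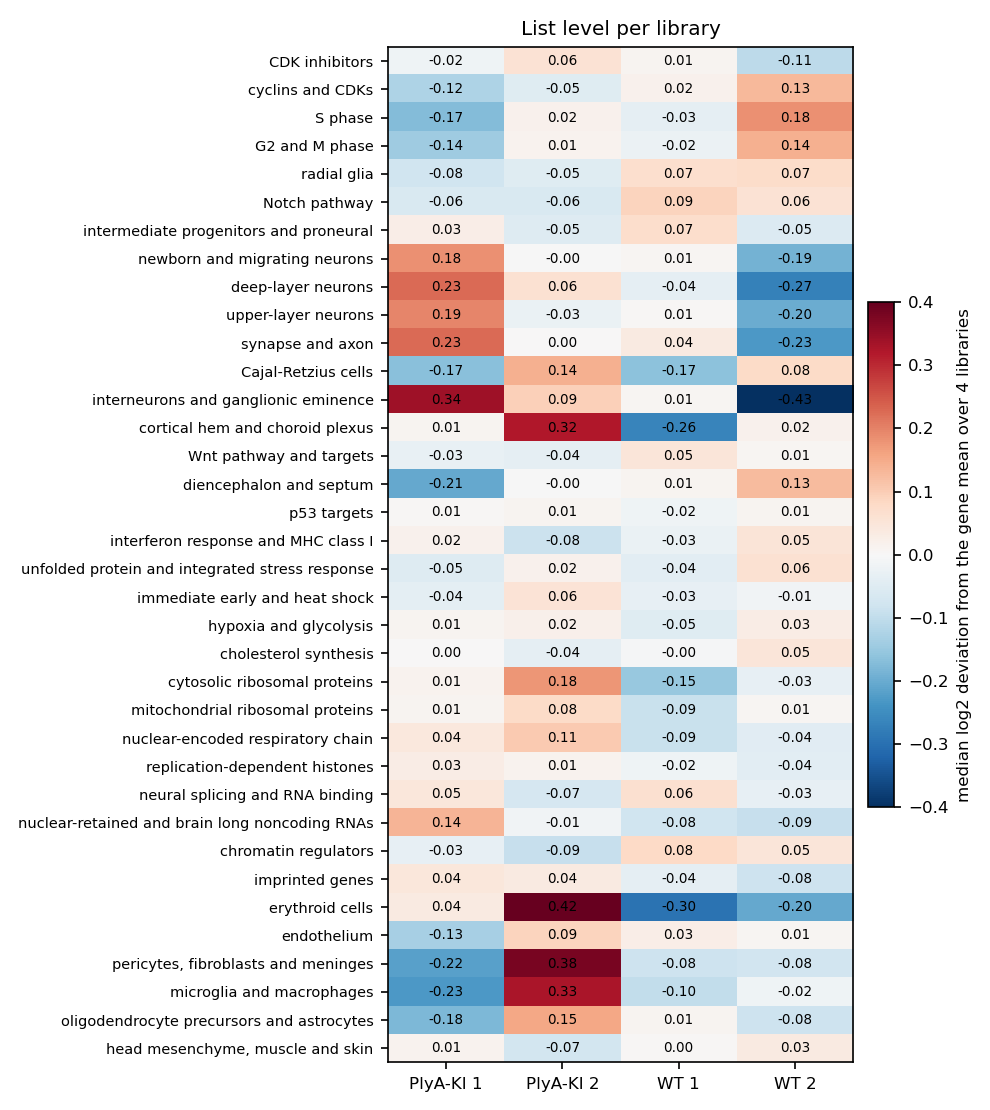
Median log2 deviation of each list's tested autosomal genes from their own mean over the 4 libraries, for PlyA-KI 1 and 2 and WT 1 and 2 (columns); red is above and blue below the mean. The radial glia list is below the mean in both PlyA-KI libraries (-0.08 and -0.05) and above it in both WT libraries (0.07), while the S phase list runs from -0.17 in PlyA-KI 1 to 0.18 in WT 2 and the erythroid list peaks at 0.42 in PlyA-KI 2.

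Chromatin regulators were the list with the most uniform negative sign. Of 52 genes 49 had negative log2 fold changes, with a median of -0.15, and 34 lay below WT without overlap, against 20.4% of all autosomal genes. The median was -0.17 without PlyA-KI 1 and -0.13 without PlyA-KI 2. Chd7, a remodeller of progenitors, had 230 and 250 CPM in PlyA-KI and 298 and 322 CPM in WT (-0.38, SE 0.08; adjusted p = 0.195 in edgeR and 0.0119 in DESeq2). Baz1b, a remodeller subunit, had 493 and 484 CPM in PlyA-KI and 575 and 599 CPM in WT (-0.28, SE 0.08). Setd5 and Bptf, a SET-domain protein and a remodeller subunit, were at -0.25 and -0.24. Of the 52 genes 43 belong to the longest quintile of all genes, where 31.8% lay below WT without overlap.

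Genes for making protein and for respiration had mostly positive values. Of 81 cytosolic ribosomal protein genes 78 were positive, with a median of 0.18, and 54 lay above WT without overlap, against 34.6% of the shortest quintile of genes, to which 73 of the 81 belong. The median was 0.27 without PlyA-KI 1 and 0.08 without PlyA-KI 2, and the list was highest in PlyA-KI 2. Many of these genes have processed copies in the genome, which makes their counts uncertain. Rpl34 had 151 and 154 CPM in PlyA-KI and 118 and 124 CPM in WT (0.32, SE 0.08; adjusted p = 0.221 in edgeR and 0.0488 in DESeq2).
Nuclear genes of the respiratory chain had 70 of 86 positive and a median of 0.15, which was 0.18 without PlyA-KI 1 and 0.09 without PlyA-KI 2. Of the 86 genes 73 belong to the shortest quintile, and 60.5% lay above WT without overlap, against 34.6% of that quintile. Cox5b, a subunit of cytochrome c oxidase, had 50.9 and 58.9 CPM in PlyA-KI and 43.7 and 39.7 CPM in WT (0.39, SE 0.10). Mitochondrial ribosomal protein genes had 59 of 77 positive and a median of 0.08, which was 0.01 without WT 1 and 0.03 without PlyA-KI 2. With 35.1% of them above WT without overlap, they were near the 34.6% of the shortest quintile, to which 58 of the 77 belong. Counts on the mitochondrial genome itself made up 2.86 and 3.09% in PlyA-KI against 2.25 and 2.07% in WT.

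Long noncoding RNAs retained in the nucleus or found in brain had 20 of 29 positive and a median of 0.14, which was 0.07 without PlyA-KI 1 and 0.25 without PlyA-KI 2. Mir17hg, host of the miR-17 to miR-92 cluster that is abundant in progenitors, had 40.8 and 39.8 CPM in PlyA-KI and 25.6 and 29.9 CPM in WT (0.53, SE 0.10; adjusted p = 0.157 in edgeR and 0.0119 in DESeq2). Imprinted genes had a median of 0.11, which was 0.05 without WT 2 and 0.01 without PlyA-KI 2. Among them were Nnat, a neuronal membrane protein, at 848 and 811 CPM in PlyA-KI and 693 and 614 CPM in WT (0.33, SE 0.09), and Igf2r, a receptor that clears IGF2, at -0.27 (SE 0.07). RNA-binding and splicing genes had a median of -0.01, with the oncofetal Igf2bp1 at 173 and 167 CPM in PlyA-KI and 214 and 205 CPM in WT (-0.31, SE 0.07; adjusted p = 0.218 in edgeR and 0.0436 in DESeq2). Replication-dependent histone genes had a median of -0.04 over 24 genes, and its sign turned in 4 of the settings.

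The stress lists lay near 0. p53 targets had a median of 0.02, with 17 of 30 positive. Trp53inp1, a stress-induced p53 cofactor, had 204 and 170 CPM in PlyA-KI and 154 and 114 CPM in WT (0.47, SE 0.13; adjusted p = 0.270 in edgeR and 0.0498 in DESeq2). The unfolded protein and integrated stress response, immediate early and heat shock, hypoxia and glycolysis, and interferon lists had medians of 0.01, 0.00, -0.02 and -0.04, and the sign of each turned in at least 2 settings. Cholesterol and lipid synthesis genes had 22 of 28 negative and a median of -0.08. Fasn, the fatty acid synthase, had 392 and 391 CPM in PlyA-KI and 479 and 487 CPM in WT (-0.31, SE 0.07; adjusted p = 0.219 in edgeR and 0.0213 in DESeq2).

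**Figure D5:**
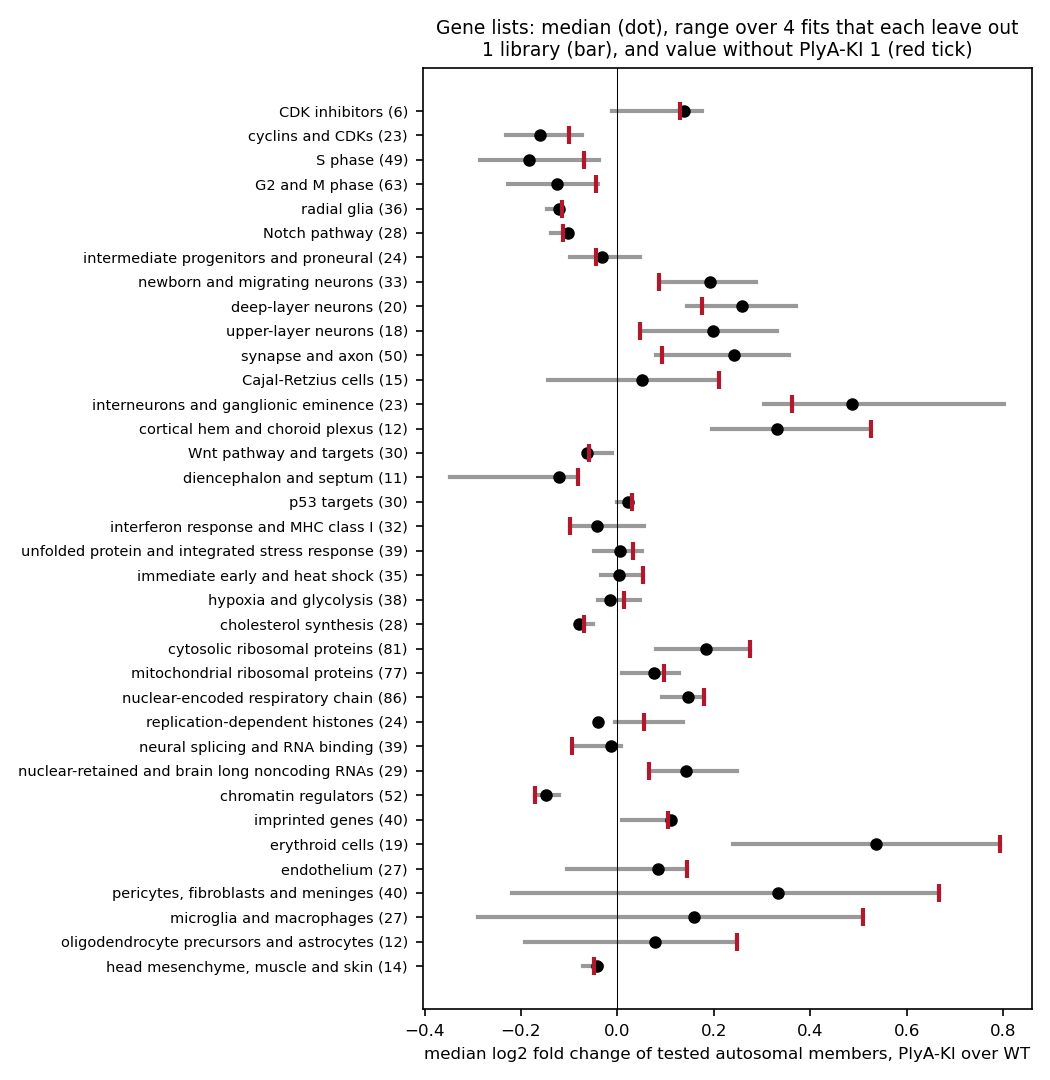
Median log2 fold change of PlyA-KI over WT for each list (dot, number of genes tested in brackets), with the range over the 4 fits that each leave out 1 library (bar) and the value without PlyA-KI 1 (red tick). The radial glia, Notch and chromatin lists stay below 0 over the whole bar. So do the lists of S phase, G2 and M phase, cyclins, cholesterol synthesis, Wnt, diencephalon and septum, and head mesenchyme. Those of fibroblasts (-0.22 to 0.67) and microglia (-0.29 to 0.51) cross 0. In the Notch list (-0.10) and the histone list (-0.04) the dot lies outside the bar.

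The genes of the knock-in were set beside the knockdown, a separate experiment with no library in common, in which cells of ICR embryos that had received 3 µg/µl of a Lockd-shRNA or control plasmid were sorted at E16.5. Lockd had a log2 fold change of -1.11 (SE 0.30) there, Lockd-shRNA over control, which was not called (adjusted p = 0.254, edgeR), and Cdkn1b one of -0.03 (SE 0.14), against -8.12 and -0.61 in PlyA-KI over WT. Of the 10 genes higher in PlyA-KI, 7 had positive log2 fold changes in the knockdown, with a median of 0.33, and of the 10 lower ones 7 had negative ones, with a median of -0.08. The shares of all genes with positive or negative values in the knockdown are not given here, so these counts have no background beside them. edgeR called 0 of these 20 genes in the knockdown. Ldb2, Mef2c and Dync1i1 were at 0.85, 0.80 and 0.90 there, while Lars2, Mir124a-1hg and Zfp518a were at -0.62, -0.29 and -0.54. Nes and Fgfr3 were at -0.10 (SE 0.14) and -0.07 (SE 0.17). Strain, stage, sorting and the way Lockd was lowered all differ between the experiments, and the difference between them was not tested.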

How the data were processed

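The authors deposited, for each of the 4 cortex libraries, whole-number read counts per Entrez gene and an FPKM value, used here only for the gene length it implies. The submitters' processing notes name featureCounts, HISAT2, Trimmomatic, bcl2fastq and mm10. Strand setting, annotation and tool versions were not given in the sources used here, which leaves overlapping and antisense genes uncertain. Names came from RefSeq GRCm38.p6 (25274 identifiers) and GENCODE (18), and 1886 had none. Counts were tested with edgeR 4.0.16 in R 4.3.3 (filterByExpr, TMM, quasi-likelihood F-test, two-sided, Benjamini-Hochberg over all 15398 genes tested, threshold 0.05). The fit was also run on simulated counts, with changes larger than most described here, so that run cannot tell whether small differences would be called. The standard error is the log2 fold change over the square root of F. Limits of 3 counts were 0.0632 to 0.0853 CPM. DESeq2 1.42.0, limma 3.58.1 and other filters, scalings and left-out libraries were alternatives. Genes and lists were chosen with earlier results of these data known. Genes named are Lockd, Cdkn1b, the 10 per direction with the smallest p and a mean of at least 5 CPM (predicted and unnamed loci and pseudogenes left out), the members of each list with the smallest p, and the detected CDK inhibitors. Ddx47, Xist, Ddx3y, Eif2s3y, Sox2, Vim, Hes1, Hes5, Bcl11b, Reln and the defining cell type markers were added outside this rule. A few genes that the rule names are not reported here.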

Additional observations from a re-analysis of the deposited data

Results flagged for a closer look

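Off the autosomes and among identifiers without a name, 7 features passed edgeR's threshold in PlyA-KI over WT (adjusted p from 7.33e-05 to 0.0229, edgeR), all higher in PlyA-KI and outside the autosomal comparison. ND3, a mitochondrially encoded subunit of complex I, had 8.04 and 7.19 CPM in PlyA-KI against 0.229 and 0.274 CPM in WT, a log2 fold change of 4.88 (SE 0.29). The other 12 protein genes of the mitochondrial genome lay between 0.02 and 1.28, and 0 were called. On the X chromosome, Erdr1 had 8.30 and 18.4 CPM in PlyA-KI against 0.356 and 0.147 CPM in WT (5.75, SE 0.48). G530011O06Rik had 9.72 and 11.1 CPM in PlyA-KI against 1.19 and 1.35 CPM in WT (3.01, SE 0.21). Mid1, a ubiquitin ligase on microtubules, had 61.3 and 56.9 CPM in PlyA-KI against 28.0 and 26.2 CPM in WT (1.11, SE 0.09). Alas2, the erythroid enzyme that starts haem synthesis, had 19.9 and 19.1 CPM in PlyA-KI against 10.3 and 8.89 CPM in WT (1.01, SE 0.13). Both PlyA-KI libraries were above both WT libraries in each, although PlyA-KI 1 alone carried counts of Y-linked genes at over 50 CPM. The unnamed identifiers 19791 and 100861531 had log2 fold changes of 1.55 each (SE 0.15 and 0.16), the second with 2984 and 4125 CPM in PlyA-KI against 1352 and 1062 CPM in WT.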

How the results depend on the processing

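The count of autosomal calls depended on the setting. It was 1, Lockd, with DESeq2 size factors, with autosomal genes alone, with a filter of CPM of 1 or more, with limma-voom and with a minimum absolute log2 fold change of 1. Without a filter on low counts it was 442 (275 higher, 167 lower), and with DESeq2 it was 98 (48 higher, 50 lower). Fits that leave out 1 library gave 32 to 519 calls, 21 to 324 higher and 11 to 195 lower: 519 without PlyA-KI 2, 350 without WT 1, 111 without PlyA-KI 1 and 32 without WT 2. In these fits the lone library is assumed to vary like the other group, and the cause of the higher counts was not tested. With the replicate number as a block, 2078 genes were called (961 higher, 1117 lower). The numbers share only a number, since nothing in the labels links replicate 1 of both genotypes, and their deviations correlated at 0.18 over genes. Of 1678 values of 154 genes (Lockd, Cdkn1b, those of smallest p and list members), 1261 kept direction and side of the threshold, 409 passed it in addition, and 8 turned sign. Leaving out 1 library gave log2 fold changes from -0.052 (without PlyA-KI 2) to 0.61 (without PlyA-KI 1) for Cdkn1a, and between the same fits from -0.073 to 1.10 for Lhx1, -0.36 to 1.17 for Lhx5, -0.097 to 0.38 for Sparcl1, -0.83 to 1.18 for Pdgfra and -0.57 to 1.03 for Egfr. For Cdkn2d it ran from -0.087 (without WT 2) to 0.11 (without WT 1), with -0.011 without PlyA-KI 1. Of the further genes given as markers or neighbours, the same 4 fits took Col1a1 from -0.32 to 1.09, Csf1r from -0.63 to 0.21, Reln from -0.13 to 0.48, Eomes from -0.16 to 0.11, Vim from -0.12 to 0.01, Hes1 from -0.08 to 0.04 and Ddx47 from -0.07 to 0.05. The median of 14 of 37 lists changed sign in at least 1 setting. Lockd in PlyA-KI rests on 6 counts, so its level there is known only within its counting interval.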

Other observations

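Among the 97 autosomal genes that DESeq2 but not edgeR called, some were in no list described so far. The 7 given here were picked after their values were seen, without a rule set beforehand, and the others are not described. Slitrk1, a transmembrane protein of growing neurites, had a log2 fold change of 0.67 (SE 0.13), with 44.5 and 38.8 CPM in PlyA-KI against 29.3 and 22.6 CPM in WT. Id2, an inhibitor of basic helix-loop-helix factors, was at 0.50, the voltage-gated potassium channel gene Kcna1 at 0.74 and the planar polarity gene Prickle2 at 0.76. On the lower side, the chromatin protein gene Hmga2, which is high in early neural stem cells, was at -0.54, Gli3, a transcription factor of Hedgehog signalling, at -0.34, and Robo3, a receptor of axon crossing, at -0.66. edgeR's adjusted p was above 0.05 for all 7.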
